A study of Mus musculus with 4 samples.

Results

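The clustered protocadherins are cell surface proteins of the cadherin superfamily, encoded by the Pcdha, Pcdhb and Pcdhg gene clusters, which in the mouse lie one after the other on chromosome 18. They were taken here as every probe, other than the array's control spots, whose gene name in the files begins with Pcdha, Pcdhb or Pcdhg. That gave 43 of 61307 probes, with 30 of the array's 50090 gene names. The alpha cluster had 6 probes for 3 gene names, the beta cluster 28 probes for 22 and the gamma cluster 9 probes for 5. The accessions of all 43 probes were found in the RefSeq gene table of assembly GRCm38.p6, which lists 14 alpha, 22 beta and 22 gamma genes. The beta genes were thus covered in full by name, and most alpha and gamma genes had no probe named for them.

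RNA came from C3H10T1/2, an established line of mouse embryo fibroblasts used to study transformation by chemicals. The exposed group, 3MC+TPA, was given 3-methylcholanthrene, a carcinogenic polycyclic hydrocarbon, at 2.5 µg/ml for 2 days, had 4 days in plain medium, and was then given the phorbol ester tumour promoter TPA at 100 ng/ml for 2 weeks, followed by 4 weeks without either agent. The control group was the same line kept in culture for 6 weeks, and the labels name no solvent for it. The titles of the exposed samples give 6 weeks in culture too. Each group had 2 arrays, named here 3MC+TPA arrays 1 and 2 and control arrays 1 and 2. Whether the pair of arrays in a group stands for separate cultures is not given in the labels, so every p-value below speaks only of array-to-array spread and could be technical. Nor do they say that transformed foci were separated from the surrounding cells before RNA was taken. In such bulk RNA, fewer cells of a type and less RNA per cell cannot be told apart.

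As background, these proteins are best known from neurons, where each cell makes its own small set of isoforms and where contacts between identical sets let a cell tell its own branches from those of others. In the alpha and gamma clusters, each isoform begins with its own variable exon under its own promoter, and that exon is spliced to constant exons that all isoforms of the cluster share. The variable exon encodes the extracellular cadherin repeats and the membrane span, and the constant exons encode a common cytoplasmic end. Beta genes each consist of a single exon and have no constant part. A probe within a variable exon or a beta gene therefore reads 1 isoform, whereas a probe in constant exons reads the output of a whole cluster. By the files' own annotation, 3 alpha probes match transcripts of 9 alpha genes and 3 gamma probes match transcripts of 9 gamma genes. They are called shared probes here, and the other 37 single-gene probes. A shared probe carries the name of only 1 of its genes, Pcdha6, Pcdha9 or Pcdhga7.

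Values are log2 spot signals after subtracting each array's own 75th percentile. Brightness also depends on the probe, so no change was drawn from comparing levels of different probes. Probes are only described as bright or dim, and signals were summed only over marker lists. Those sums include signals not well above background. A probe was tested when the scanner placed it well above background on both 3MC+TPA arrays or on both control arrays, which held for 28 of the 43 members and 32103 probes in all. A probe is said to be called, or to have risen or fallen, at a limma adjusted p under 0.05 (Benjamini-Hochberg over all tested probes). Log2 changes are given with their standard errors. On the array as a whole, 7.44% of tested probes were called higher and 8.05% lower, so 48.0% of all calls were higher, a share that was 80.1% without scaling between arrays. Of the 28 tested members, 9 were called higher and 2 lower, and 17 were not called (12 higher and 1 lower without scaling). The 9 were 3 alpha probes and 6 beta probes, the 2 were beta probes, and no gamma probe was called (1 of 5 had an unadjusted p under 0.05, and the methods' t-test with adjustment called none). The remaining 15 members were not tested, and 11 of them were well above background on no array. Some of the tested members passed the filter through a single group. Among the called ones these were P632669 of Pcdha9 and P268469 of Pcdhb19, through the 3MC+TPA arrays, and Pcdhb9, through the control arrays. For such probes the filter favours calls towards the group that passed. Among the 22 members well above background on all 4 arrays, fitted with the like probes of the whole array, 7 were called higher and 1 lower.

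The shared alpha probes gave the largest rises among the members. All 3 were called higher in 3MC+TPA cells, by 8.37-fold to 11-fold. These 3 probes match transcripts of the same 9 alpha genes, so they are repeated readings of a shared signal and not independent members. Probe P488953, named for Pcdha6, measured -0.82 and -0.68 on 3MC+TPA arrays 1 and 2, against -3.71 and -4.24 on control arrays 1 and 2. Its log2 change was 3.22 ± 0.23, which is 9.3-fold (limma adjusted p = 0.0018). Both exposed arrays lay close together and far above both control arrays. Probe P404535, named for Pcdha9, measured 1.10 and 0.95 on the 3MC+TPA arrays, against -1.56 and -3.30 on the control arrays (log2 change 3.45 ± 0.56, limma adjusted p = 0.019). Probe P632669, also named for Pcdha9, measured -0.84 and -1.04 on the 3MC+TPA arrays, against -3.42 and -4.58 on the control arrays (log2 change 3.07 ± 0.40, limma adjusted p = 0.010). For all 3 probes control array 2 was the lower of the control arrays, and for P632669 it was not well above background.

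The single-gene alpha probes did not show a rise of that size. For Pcdha6, single-gene probe P324950 measured -4.64 and -4.43 on the 3MC+TPA arrays, against -5.12 and -4.64 on the control arrays. On control array 1 it was not well above background. The log2 change was 0.35 ± 0.22, with a 95% interval of -0.22 to 0.91 (limma adjusted p = 0.33), and it was -0.15 with normexp background correction. For Pcdha9, single-gene probe P378167 measured -4.42 and -3.31 on the 3MC+TPA arrays, against -3.80 and -4.27 on the control arrays, so the groups overlapped. Its log2 change was 0.17 ± 0.40, with an interval of -0.85 to 1.19 (limma adjusted p = 0.80, log2 change -0.04 with normexp). Pcdha4, with a single probe, was well above background on no array. The difference in change between shared and single-gene probes was not itself tested. Which of the other alpha isoforms, Pcdhac1 and Pcdhac2 among them, were transcribed in these cells cannot be read from the members, since no probe is named for them.

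**Figure D1:**
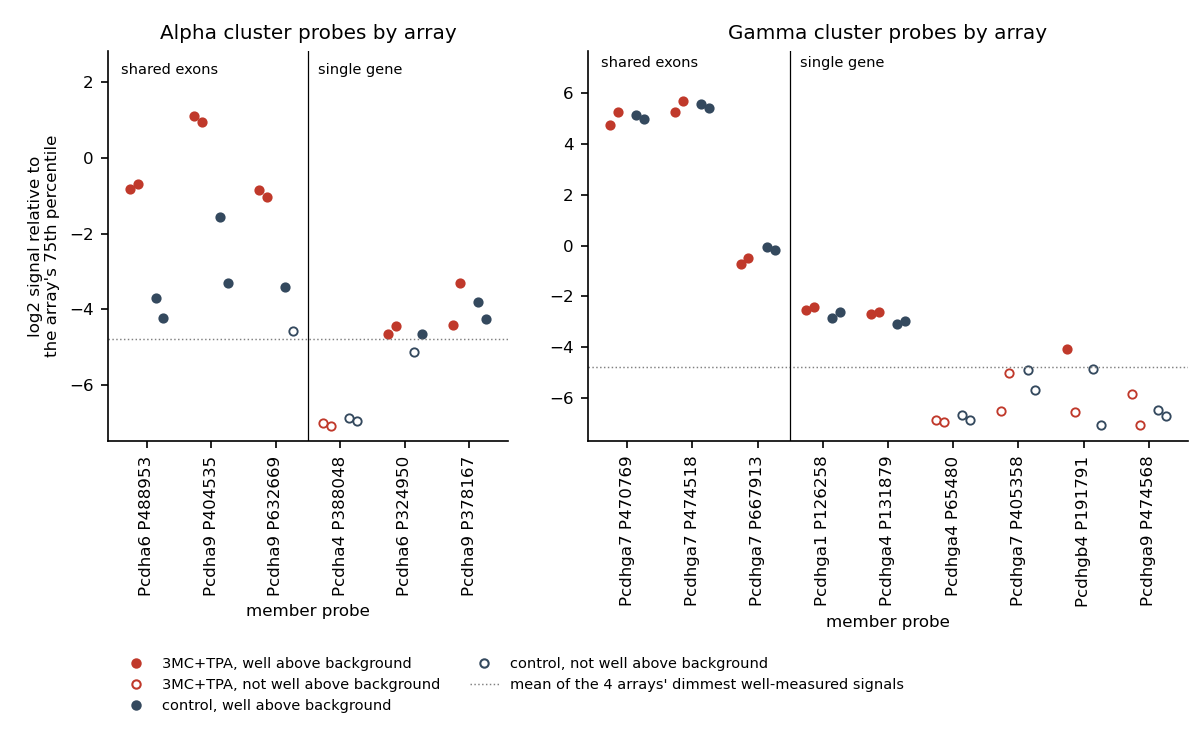
Signal of each alpha cluster probe (left) and gamma cluster probe (right) on each array, as log2 minus the array's 75th percentile. Points are single arrays, red for 3MC+TPA and dark for control, open where not well above background, and the dotted line is the mean of the arrays' dimmest well-measured signals. The 3 shared alpha probes stand higher on both 3MC+TPA arrays than on both control arrays, while the shared gamma probes P470769 and P474518 overlap between groups.

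The call of P488953 held in all 12 other limma settings. Those of P404535 and P632669 ended without 3MC+TPA array 1 (limma adjusted p = 0.097 and 0.066), without 3MC+TPA array 2 (0.095 and 0.063) and with no filter on dim probes, though their log2 changes stayed between 2.49 and 4.32 when any 1 array was left out. With normexp background correction the log2 changes were 1.93 for P488953, 2.80 for P404535 and 1.67 for P632669, and all 3 were still called. Neuronal RNA markers were read beside this result, since neurons are the best known source of these transcripts. Of 10 neuron markers, 2 were tested and 6 (Elavl3, Elavl4, Nefl, Rbfox3, Stmn2 and Syp) were well above background on no array. The other 2, Snap25 and Syt1, passed on a single array each. Map2 (Mtap2 in the files), a microtubule-associated protein of dendrites, rose, at 1.92 and 1.64 on the 3MC+TPA arrays, against -1.15 and -2.79 on the control arrays (log2 change 3.75 ± 0.54, limma adjusted p = 0.013), a call that ended without 3MC+TPA array 1 (0.079) and without 3MC+TPA array 2 (0.075). Tubb3, a neuronal beta tubulin, changed by 0.11 ± 0.16 and was not called. The markers' summed signal, in multiples of the 75th percentile, was 4.47 and 3.73 on the 3MC+TPA arrays, against 1.06 and 0.77 on the control arrays. Without Map2 the other 9 markers summed to 0.67 and 0.61 on the 3MC+TPA arrays, against 0.61 and 0.63 on the control arrays. Map2 was left out after its rise was seen, and most of the remaining sum was the signal of Tubb3.

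Beta genes moved in both directions. Of 18 tested beta probes, 6 rose and 2 fell, and the median log2 change of the 18 was 0.28, against 0.01 for all tested probes. Of all tested probes, 7.44% rose and 8.05% fell. The rises were of about 2-fold and sat at 1 end of the cluster. Pcdhb22, the last beta gene before the gamma cluster, had the largest. It measured 0.78 and 0.43 on the 3MC+TPA arrays, against -0.56 and -0.88 on the control arrays, a log2 change of 1.33 ± 0.21 or 2.51-fold (limma adjusted p = 0.018). Pcdhb21 measured 1.20 and 1.04 on the 3MC+TPA arrays, against 0.17 and 0.13 on the control arrays, 1.95-fold higher (limma adjusted p = 0.019). Pcdhb20 measured 0.26 and 0.15 on the 3MC+TPA arrays, against -0.58 and -1.11 on the control arrays, 2.07-fold higher (limma adjusted p = 0.038). In each of these genes both exposed arrays lay above both control arrays, and for Pcdhb20 the control arrays stood further apart than the exposed ones.

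Pcdhb17 was read by 2 probes, and both rose. Probe P180741 measured 0.50 and 0.46 on the 3MC+TPA arrays, against -0.42 and -0.61 on the control arrays (2-fold, limma adjusted p = 0.019). Probe P337771 measured 1.13 and 0.79 on the 3MC+TPA arrays, against 0.22 and 0.04 on the control arrays (1.78-fold, limma adjusted p = 0.047). The call of the second probe passed narrowly and ended with quantile scaling (limma adjusted p = 0.051), with the authors' deposited log2 values (0.051) and with the replicate block (0.052). Pcdhb19 was dim, with probe P268469 at -3.86 and -3.42 on the 3MC+TPA arrays, against -4.60 and -4.95 on the control arrays, of which the second was not well above background. Its log2 change of 1.14 ± 0.23 (limma adjusted p = 0.033) was 0.27 and not called with normexp background correction (limma adjusted p = 0.24) and not called with the replicate block (0.058), and its second probe was well above background on no array. Pcdhb18, which lies between Pcdhb17 and Pcdhb19, measured -1.87 and -2.48 on the 3MC+TPA arrays, against -2.36 and -2.45 on the control arrays. Those groups overlapped, and its log2 change of 0.23 ± 0.24 was not called (limma adjusted p = 0.56).

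The 2 falls were those of Pcdhb9 and Pcdhb14. Pcdhb9 was well above background on both control arrays and on neither 3MC+TPA array, at -5.73 and -6.51 on the 3MC+TPA arrays, against -3.36 and -3.81 on the control arrays. Set against the dimmest well-measured signals of the exposed arrays, it was at least 2.32-fold lower in 3MC+TPA cells (limma adjusted p = 0.0095 from the fit to the signals). The call held without each array in turn, with log2 changes of -2.93 to -2.14, and ended with no filter on dim probes (limma adjusted p = 0.076). With normexp background correction the log2 change was -0.83, below that bound, and still called. Pcdhb14 measured -1.20 and -1.27 on the 3MC+TPA arrays, against -0.10 and -0.46 on the control arrays, a log2 change of -0.96 ± 0.19 or 1.94-fold lower (limma adjusted p = 0.031). It was measured on all 4 arrays, and the groups did not overlap. Its call ended without control array 1 (limma adjusted p = 0.074), without 3MC+TPA array 1 (0.11), without 3MC+TPA array 2 (0.14), without scaling (log2 change -0.61) and with no filter on dim probes.

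**Figure D2:**
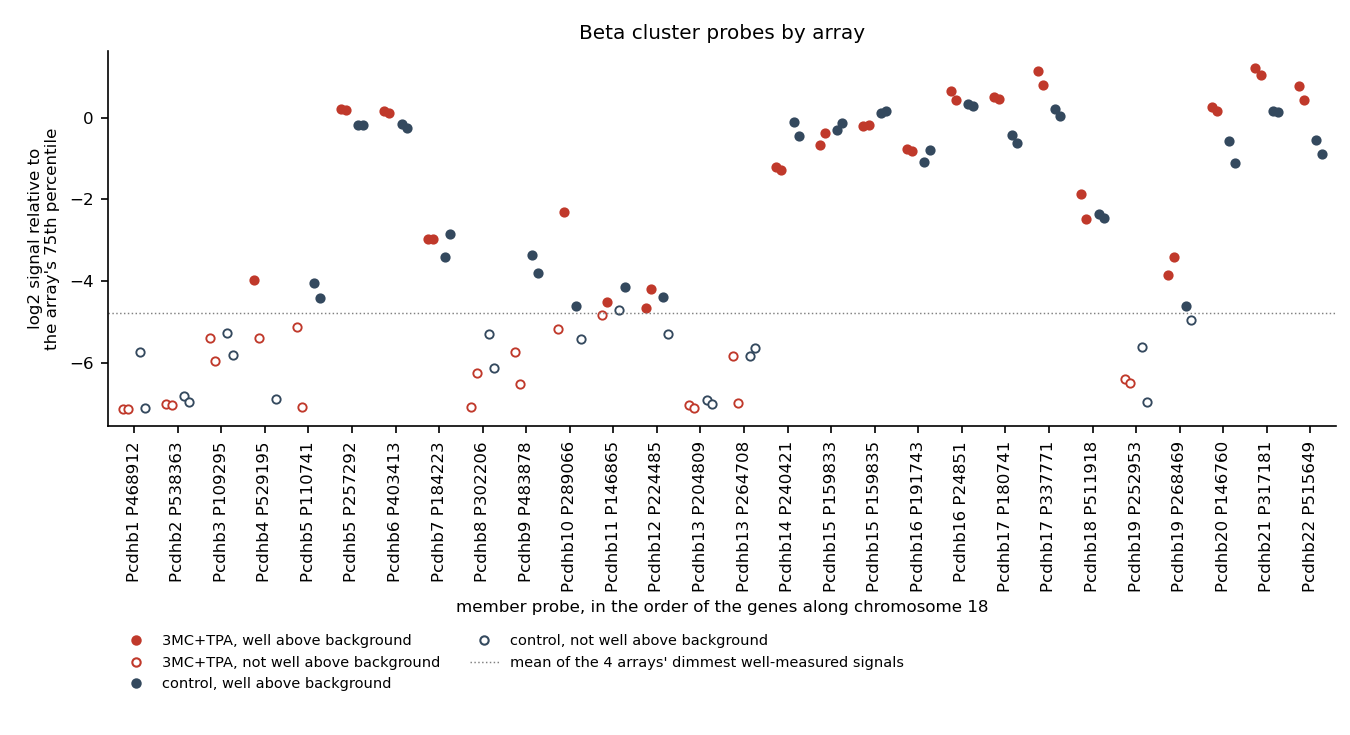
Signal of each of the 28 beta cluster probes on each array, as log2 minus the array's 75th percentile, with probes in the order of their genes on chromosome 18. Red points are the 3MC+TPA arrays, dark points the control arrays, and open points were not well above background. Among the 18 tested probes red points lie above dark ones in 9 and below them in 5, against 32.8% and 31.1% of all tested probes. The 9 are those of Pcdhb6, Pcdhb20, Pcdhb21 and Pcdhb22, both of Pcdhb17, P268469 of Pcdhb19, P257292 of Pcdhb5 and P24851 of Pcdhb16. The 5 are those of Pcdhb9 and Pcdhb14, both of Pcdhb15 and P110741 of Pcdhb5.

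The other tested beta probes were not called. Pcdhb5 was read by 2 probes that went opposite ways. Probe P257292 measured 0.22 and 0.18 on the 3MC+TPA arrays, against -0.18 and -0.17 on the control arrays (log2 change 0.38 ± 0.15, limma adjusted p = 0.15). The dimmer P110741 was well above background only on the control arrays, and its value on 3MC+TPA array 2 was a substitute set by the scanner software. It measured -5.11 and -7.07 on the 3MC+TPA arrays, against -4.05 and -4.41 on the control arrays (log2 change -1.86 ± 0.64, limma adjusted p = 0.11). Set against the dimmest well-measured signals of the exposed arrays, it was at least 1.48-fold lower. It was called lower without 3MC+TPA array 1 (limma adjusted p = 0.017) and with normexp (log2 change -0.56, limma adjusted p = 0.045), and P257292 was called higher without scaling (0.033). Pcdhb6 had a log2 change of 0.33 ± 0.15, Pcdhb7 of 0.15 ± 0.23 and Pcdhb12 of 0.43 ± 0.36. The probes of Pcdhb15 gave -0.30 ± 0.19 and -0.34 ± 0.15, and those of Pcdhb16 gave 0.15 ± 0.18 and 0.23 ± 0.17. Pcdhb1, Pcdhb2, Pcdhb3, Pcdhb8 and Pcdhb13 were well above background on no array. Pcdhb4, Pcdhb10 and Pcdhb11 passed on 1 or 2 arrays and were not tested. For Pcdhb4 the spot on control array 1 carried an outlier flag and was dropped, and for Pcdhb10 the 3MC+TPA arrays stood apart, at -5.17 and -2.31, against -4.61 and -5.42 on the control arrays.

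Along the cluster, Pcdhb1 to Pcdhb16 held 11 tested probes, of which none was called higher and 2 lower, with a median log2 change of 0.15. Pcdhb17 to Pcdhb22 held 7 tested probes, of which 6 were called higher and none lower, with a median of 1.00, and the 6 covered 5 of the 6 genes. This division was chosen after the values were seen and was not tested. Among all tested probes the shares called higher and lower were 7.44% and 8.05%. The beta genes are close paralogs, and a probe may bind transcripts of a neighbour. The member probes are 60 bases long. No pair of them was identical, and the closest pair, of Pcdhb15 and Pcdhb16, differed by 17 edits. Comparing probes with each other cannot tell whether a probe matches another member's transcript. Binding of transcripts of other members was not tested. The calls of Pcdhb17, Pcdhb19, Pcdhb20 and Pcdhb21 each ended without control array 2, without 3MC+TPA array 1 and without 3MC+TPA array 2, and P337771 of Pcdhb17 also lost its call without control array 1 (limma adjusted p = 0.069). Pcdhb22 lost its call without 3MC+TPA array 1 (limma adjusted p = 0.085) and without 3MC+TPA array 2 (0.059). The log2 changes of all 6 called probes stayed positive in every setting run.

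**Figure D3:**
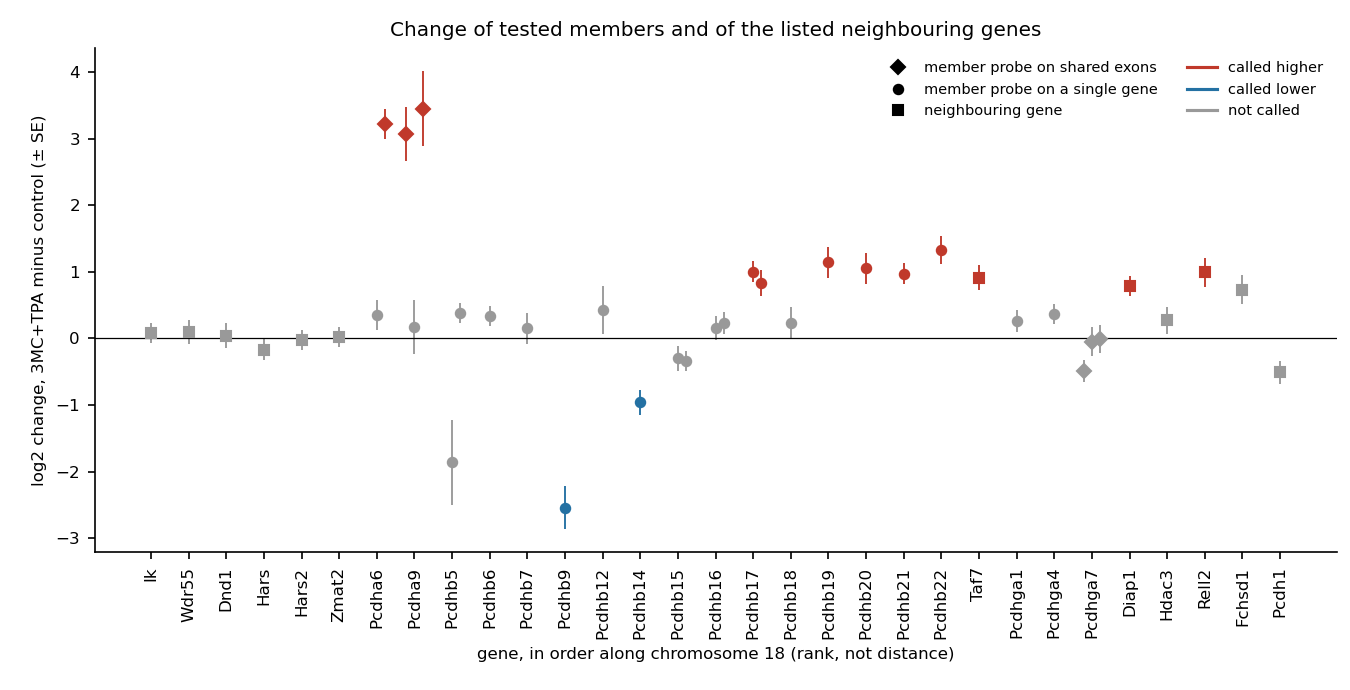
Log2 change, 3MC+TPA minus control, of the tested members and of the listed neighbouring genes, in their order on chromosome 18, with standard errors as bars. Diamonds are shared probes, circles single-gene probes and squares neighbouring genes, in red where called higher, blue where called lower and grey where not called. The rises lie in the shared alpha probes and from Pcdhb17 to Pcdhb22, Pcdhb18 excepted, and again at Taf7, Diap1 and Rell2.

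In the gamma cluster no change was called. The shared gamma probes P474518 and P470769, both named for Pcdhga7, were bright on every array. P474518 measured 5.26 and 5.71 on the 3MC+TPA arrays, against 5.58 and 5.42 on the control arrays, a log2 change of -0.01 ± 0.21 with a 95% interval of -0.55 to 0.52 (limma adjusted p = 0.98). P470769 measured 4.77 and 5.26 on the 3MC+TPA arrays, against 5.13 and 5.00 on the control arrays, a log2 change of -0.05 ± 0.22 with an interval of -0.60 to 0.50 (limma adjusted p = 0.90). In both, 3MC+TPA array 1 was the lowest of the 4 arrays and 3MC+TPA array 2 the highest. The third shared probe, P667913, measured -0.72 and -0.49 on the 3MC+TPA arrays, against -0.04 and -0.18 on the control arrays. Its log2 change of -0.49 ± 0.17 was not called (limma adjusted p = 0.12), although its groups did not overlap, which held for 32.8% of all tested probes in the higher direction and for 31.1% in the lower.

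Among single-gene gamma probes, Pcdhga1 measured -2.53 and -2.42 on the 3MC+TPA arrays, against -2.85 and -2.62 on the control arrays (log2 change 0.26 ± 0.17, limma adjusted p = 0.34). For Pcdhga4, probe P131879 measured -2.68 and -2.63 on the 3MC+TPA arrays, against -3.08 and -2.98 on the control arrays (log2 change 0.37 ± 0.15, limma adjusted p = 0.16). Neither was called in the scaled values. Without scaling between arrays P131879 was called higher (log2 change 0.72, limma adjusted p = 0.041), in a setting where the median over all tested probes was itself shifted to 0.36. The single-gene probes of Pcdhga7 and Pcdhga9 and the second probe of Pcdhga4 were well above background on no array. Pcdhgb4 was so on 3MC+TPA array 1 alone, at -4.08 there and -6.55 on 3MC+TPA array 2, against -4.87 and -7.05 on the control arrays. No member probe is named for the C-type isoforms Pcdhgc3, Pcdhgc4 or Pcdhgc5, although the annotation of the shared probes includes Pcdhgc3 and Pcdhgc5.

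Genes beside and between the clusters were read to see whether they moved with the members. Of 14 listed neighbours 12 were tested, and 3 were called higher and none lower, with a median log2 change of 0.08. Over all tested probes 7.44% were called higher and 8.05% lower. Taf7, a subunit of the general transcription factor TFIID, lies between the beta and gamma clusters and rose 1.88-fold, at 0.43 and 0.71 on the 3MC+TPA arrays, against -0.47 and -0.21 on the control arrays (limma adjusted p = 0.036). Of its 2 other tested probes, 1 was also called higher. Slc25a2, a mitochondrial carrier gene between Pcdhb22 and Taf7, was well above background on no array. On the far side of the gamma cluster, Diap1, an actin-nucleating formin, rose 1.72-fold (limma adjusted p = 0.029) and Rell2, of the family that binds the TNF receptor relative Relt, rose 1.98-fold (limma adjusted p = 0.044), while the histone deacetylase gene Hdac3 changed by 0.27 ± 0.20 and was not called. Before the alpha cluster, none of Ik, Wdr55, Dnd1, Hars, Hars2 and Zmat2 was called, with log2 changes of -0.17 to 0.09. The calls of Taf7 and Diap1 ended when any 1 array was left out, and that of Rell2 ended without control array 2, without either 3MC+TPA array and with normexp (log2 change 0.30).

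The protocadherins outside the clusters are the nearest relatives on the array. Of their 32 probes, 12 were tested and 5 were called higher and none lower, against 7.44% and 8.05% of all tested probes. All 12 were well above background on both 3MC+TPA arrays, but only 7 were so on both control arrays. The filter thus let in probes bright in 3MC+TPA cells alone, which favours higher calls in this count. By brightest probe, 4 of 9 tested genes were called higher. Pcdh17, an adhesion protein of the delta group, measured -0.11 and -0.40 on the 3MC+TPA arrays, against -6.66 and -6.81 on the control arrays, where it was not well above background, so it was at least 22.4-fold higher in 3MC+TPA cells (limma adjusted p = 0.00023). Pcdh9 was at least 2.67-fold higher (limma adjusted p = 0.0017). Pcdh12, known from endothelium, was 3.26-fold higher (limma adjusted p = 0.024), though it was well above background on only 1 control array. Pcdh19 was 2.19-fold higher (limma adjusted p = 0.034), with its other tested probe not called. The calls of Pcdh17 and Pcdh9 held without each array in turn, and that of Pcdh12 ended without either 3MC+TPA array (limma adjusted p = 0.11 each time) and with normexp. The call of Pcdh19 ended without control array 2 (limma adjusted p = 0.081), without 3MC+TPA array 1 (0.10), without 3MC+TPA array 2 (0.15) and with the replicate block (0.057). Whether the clustered and the other protocadherins differed in their changes was not tested.

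Genes known to set the choice of protocadherin promoters were measured in both groups. The insulator protein CTCF and the cohesin ring hold promoters and enhancers of the clusters together, and of 14 listed genes of this kind, all tested, none was called higher and 2 were called lower by their brightest probe (5 had an unadjusted p under 0.05). A dimmer probe of Nipbl, which loads the ring, and 1 of 2 dimmer probes of Esco1, which acetylates it, were called higher, while the brightest probes of both were not called. Smc1a, a core subunit of the ring, fell 2.13-fold, at 3.45 and 3.40 on the 3MC+TPA arrays, against 4.48 and 4.56 on the control arrays (limma adjusted p = 0.012). Hdac8, which deacetylates cohesin, fell 2.36-fold (limma adjusted p = 0.0085). Ctcf itself changed by 0.54 ± 0.16 and was not called (limma adjusted p = 0.089). Of 18 genes of DNA methylation and promoter silencing, all tested, 1 rose and none fell. Over all tested probes 15.5% were called in either direction, and neither this list nor that of CTCF and cohesin exceeded that share. By direction the shares were 7.44% higher and 8.05% lower, and only the 2 falls of 14 CTCF and cohesin genes exceeded their share. Tet3, which oxidises 5-methylcytosine, rose 2.22-fold, at 0.75 and 0.66 on the 3MC+TPA arrays, against -0.28 and -0.61 on the control arrays (limma adjusted p = 0.017). Dnmt3b, the methyltransferase that acts on these promoters in the mouse embryo, changed by 0.13 ± 0.16, Dnmt1, which maintains methylation, by -0.78 ± 0.24, and Smchd1, a silencing protein of the SMC family, by -0.12 ± 0.25, and none of these was called. The calls of Smc1a, Hdac8 and Tet3 each ended without 3MC+TPA array 1 and without 3MC+TPA array 2, with limma adjusted p of 0.053 to 0.091.

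On the side of the cytoplasmic domains, 3 kinase genes rose. They came from a list of 10 genes for partners of these domains, of which 9 were tested, 3 were called higher and none lower. The shares over all tested probes were 7.44% higher and 8.05% lower. Ptk2b, which encodes the kinase Pyk2, rose 3.9-fold, at -0.99 and -1.09 on the 3MC+TPA arrays, against -2.86 and -3.15 on the control arrays (limma adjusted p = 0.0038). Ptk2, which encodes focal adhesion kinase, rose 1.87-fold (limma adjusted p = 0.023), with its other tested probe not called. Fyn, a Src family kinase, rose 5.08-fold (limma adjusted p = 0.011), and its 3 other tested probes were called higher too. The call of Ptk2b held without each array in turn, while those of Fyn and Ptk2 ended without either 3MC+TPA array, and that of Ptk2 also without control array 2. None of 7 tested genes of the WAVE complex, an actin regulator that binds protocadherin tails, was called (1 had an unadjusted p under 0.05, with a median log2 change of 0.40). None of 8 genes for the shedding proteases ADAM10, ADAM17 and gamma-secretase was called (2 had an unadjusted p under 0.05, with a median of 0.12).

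**Figure D4:**
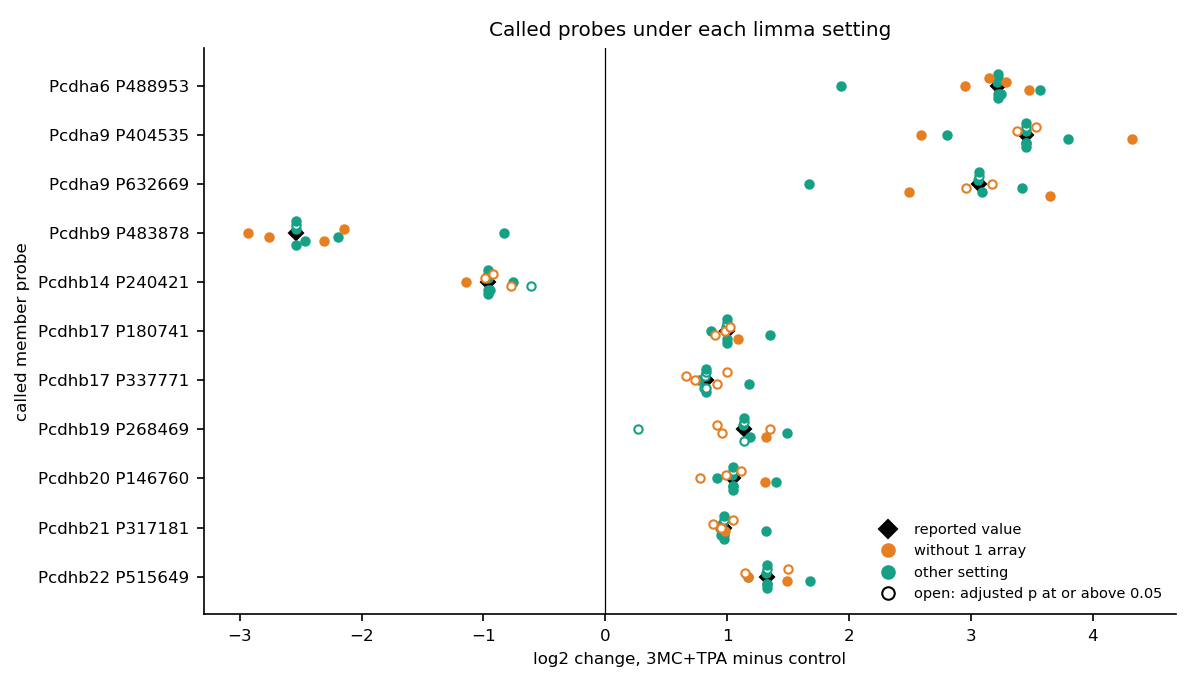
Log2 change, 3MC+TPA minus control, of the 11 called member probes under each limma setting. Black diamonds are the reported values, orange points leave out 1 array, green points are other settings, and open points have an adjusted p at or above 0.05. No point crosses 0, and P488953 is filled throughout.

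As a check of the labelled cell type, all 10 fibroblast markers were tested, and Col1a1, Col1a2, Col3a1, Fn1 and Vim were not called in either direction. Dcn, Lum, Pdgfra and Pdgfrb fell and Thy1 rose, so the fibroblast list itself moved between groups, and its part in the results was not tested. Among markers of other cells, 5 of 7 leukocyte genes (Ptprc and Itgam among them), 4 of 6 endothelial genes (Cdh5, Kdr, Pecam1 and Tie1), 2 of 6 epithelial genes (Cdh1 and Krt18) and 2 of 6 glial genes (Gfap and Olig2) were well above background on no array. In these 4 lists only Tek, an endothelial receptor, was called, at -3.95 and -3.90 on the 3MC+TPA arrays, against -5.46 and -5.98 on the control arrays, at least 1.77-fold higher (limma adjusted p = 0.0088), a call that ended with normexp and without either 3MC+TPA array. Their summed signals were 0.14 to 0.38 on the 3MC+TPA arrays, against 0.14 to 0.36 on the control arrays, in multiples of the 75th percentile. The number of spots well above background was 32222 and 32512 on the 3MC+TPA arrays, against 32125 and 32415 on the control arrays. All 4 arrays lay on 1 slide and the groups took different positions on it, so position and group cannot be told apart.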

How the data were processed

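Single-colour Agilent arrays of a custom mouse design were read with Feature Extraction 10.7.3.1, per the file headers, which give spot intensity after background subtraction, and the authors analysed them with GeneSpring GX 11.5, per the series' design text. A second table deposited by the authors holds log2 values. On each array at least 61236 of its 61307 values were within 0.01 of log2 processed intensity minus the 75th percentile, which fixes its scale and direction.

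From the scanner intensity, control spots and outlier-flagged spots were dropped, spots of 1 probe averaged, and log2 values set relative to the array's 75th percentile (539 to 745 intensity units). No spot was saturated. Groups were compared over the 4 arrays with limma 3.58.1 in R 4.3.3 (lmFit and eBayes, 2-sided), checked on simulated data, with Benjamini-Hochberg adjustment over 32103 probes. A bound given as "at least" sets the bright group's mean against the dimmest well-measured signal of the other group's arrays. A list gene was represented by its brightest tested probe. The precision is limited by 2 arrays a group.

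Named with values were the 6 largest called changes and 4 brightest probes of each cluster, members well above background in 1 group only, all tested probes of a named gene, and up to 3 called genes of each list. Pcdhb14, Pcdh19 and the uncalled genes described lie outside that rule and were chosen after their values were seen. The members and lists were chosen with earlier results of these data known. The files' coordinates and the gene table are of different builds, so only names and gene order were used. Alternatives covered scaling, background correction, the deposited log2 values, filters, 1 probe per gene, a replicate block, each array left out, the methods' t-test and a 2-fold minimum.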

Additional observations from a re-analysis of the deposited data

How the results depend on the processing

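Leaving out 1 array gave 2 to 9 called members against 11 with all arrays (9 without control array 1, 6 without control array 2, 3 without 3MC+TPA array 1 and 2 without 3MC+TPA array 2), 1 to 3 alpha calls against 3, 1 to 6 beta calls against 8, no gamma call, and 1450 to 4822 calls over all probes against 4973. The lone array of a group was assumed to vary like the other group. With no filter on dim probes there was 1 call among members (1 alpha, 0 beta) and 1359 over all probes, with 61307 probes to adjust for. Requiring signal on all 4 arrays gave 8 calls among members, 2 of them alpha, and 1 probe per gene name gave 9, 2 of them alpha. Without scaling there were 13 calls among members, 1 of them gamma, and 8784 over all probes, with the median of all probes moved to 0.36. A 2-fold minimum left 7 among members, 4 of them beta, and 3559 over all probes. The methods' t-test called 11 members, 2 alpha, 8 beta, 1 gamma and 7256 probes at an unadjusted p under 0.05, and 0 members and 29 probes after adjustment. Quantile scaling gave 10 calls among members, normexp 11 and the deposited log2 values 10. The replicate block gave 9 calls among members and 4241 over all probes. Same-numbered arrays did not deviate together (r = 0.006), so the numbers were not taken as pairs. Among the members and list genes rerun, no called change took the other sign. Among uncalled ones, with normexp the log2 change was -0.15 for Pcdha6 P324950, -0.04 for Pcdha9 P378167, -0.04 for Pcdhb12 and -0.02 for the epithelial marker Krt14. For the shared gamma probes it was 0.09 (P474518) and 0.07 (P470769) with quantile scaling, and 0.34 and 0.30 without scaling. Without scaling the Pcdhb15 probes gave 0.01 and 0.05. With 1 array left out, signs also turned for P474518 (-0.24 to 0.21), P470769 (-0.29 to 0.20), P378167 (-0.38 to 0.72), Pcdhb12 (-0.03 to 0.89), Pcdhb18 (-0.08 to 0.53) and Pcdhb7 (-0.13 to 0.44). The causes of these differences between settings were not tested. A slide block was not run, since all arrays shared 1 slide.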

Other observations

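The array also holds 7 probes for predicted genes that the files describe as similar to clustered protocadherins under LOC names, which the rule by gene name leaves out. They were looked at after the data were seen. LOC634282, described as similar to protocadherin alpha 12, was well above background on all arrays and measured -3.97 and -3.56 on the 3MC+TPA arrays, against -2.40 and -2.82 on the control arrays. Its log2 change of -1.15 ± 0.24 was called lower (limma adjusted p = 0.034), the opposite direction to the shared alpha probes. The call ended without control array 1 (0.074), without 3MC+TPA array 1 (0.13), without 3MC+TPA array 2 (0.081), without scaling, with no filter and with the replicate block (0.059). LOC100045966, described as similar to alpha 8, was well above background on 3MC+TPA array 2 alone. The other 5, described as similar to alpha, beta and gamma genes, were well above background on no array.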
